A study of Mus musculus with 6 samples.

Results

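The genes described here encode inhibitors of cyclin-dependent kinases together with the p53 protein and 2 of its classical targets. They were chosen by name: the CIP/KIP inhibitors Cdkn1a, Cdkn1b and Cdkn1c, the INK4 inhibitors Cdkn2a, Cdkn2b, Cdkn2c and Cdkn2d, and Trp53, Mdm2 and Ccng1. Of these 10 genes, 9 had a row among the 24408 genes of the table, and Cdkn2d was not analysed here. The assay was 3' SAGE, which counts a transcript through 1 short tag near its 3' end, so levels in CPM (tags per 1000000 tags of the library) can be set beside each other without regard to transcript length.

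The Untreated library came from lung fibroblasts of Col-GFP (C57BL/6) mice, a collagen reporter strain, purified by removing cells with lineage markers and never transferred. The Day 2, Day 4 and Day 7 libraries came from such donor cells placed in the airways of wild type hosts and sorted back as GFP+ cells 2, 4 or 7 days later. The Acta2 high and Acta2 low libraries came from donors that carry Col-GFP and Acta2-mKO1 (C57BL/6), a second reporter for smooth muscle actin, and were separated by that reporter's signal after transfer; the day of this sort is not given in the labels. All hosts had received bleomycin, which injures the lung, 7 days before the transfer, and no library of cells transferred into uninjured lungs was analysed here. The labels do not state ages, sexes or how many animals went into a library.

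There was 1 library for each of the 6 groups and hence no spread between samples, no test and no p-value; the intervals below are exact 95% intervals of the tag counts that cover counting error only. The libraries held 4448065 to 6175334 tags, at which 1 tag is worth 0.162 to 0.225 CPM. All 8 fibroblast markers looked for were detected in every library, with summed levels of 3779 to 19458 CPM. The leukocyte markers Ptprc, Cd68 and Marco were at 0 in every library, and the 11 leukocyte and macrophage markers together reached 3.60 to 28.1 CPM. Endothelial markers together stayed between 0.162 and 2.56 CPM. The 10 most abundant genes took 24.0% of the tags at Day 2 and 49.4% in Untreated, and the median of all measured genes was 1.58-fold higher at Day 2 than in Untreated. Most folds are therefore given after median scaling, as the CPM ratio divided by that of the median measured gene. Changes in how many cells expressed a gene cannot be told apart from changes in RNA per cell in such bulk libraries.

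Cells divide when cyclin-dependent kinases phosphorylate the retinoblastoma proteins and release E2F factors. CIP/KIP proteins bind complexes of cyclins with these kinases, and INK4 proteins bind CDK4 and CDK6 and keep D-type cyclins away. p53 switches on Cdkn1a after DNA damage and other stress and also switches on Mdm2, whose product marks p53 for destruction; Cdkn2a is known in fibroblasts for its accumulation during long growth in culture and senescence.

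Cdkn1a, which encodes p21, was by far the most abundant inhibitor in all 6 libraries and reached its highest level 2 days after transfer. Its level was 395 CPM in Untreated, 1846 CPM at Day 2, 632 CPM at Day 4, 423 CPM at Day 7, 279 CPM in Acta2 high and 439 CPM in Acta2 low. Day 2 stood above all other libraries beyond counting error, and Day 7 and Acta2 low were the only neighbours in the order of levels whose ratio could not be told from 1 (1.04 for Acta2 low over Day 7, 0.981 to 1.1). Against Untreated, Cdkn1a was 4.67-fold higher in CPM at Day 2 (4.46 to 4.89) and 2.96-fold higher after median scaling (2.83 to 3.10).

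**Figure D1:**
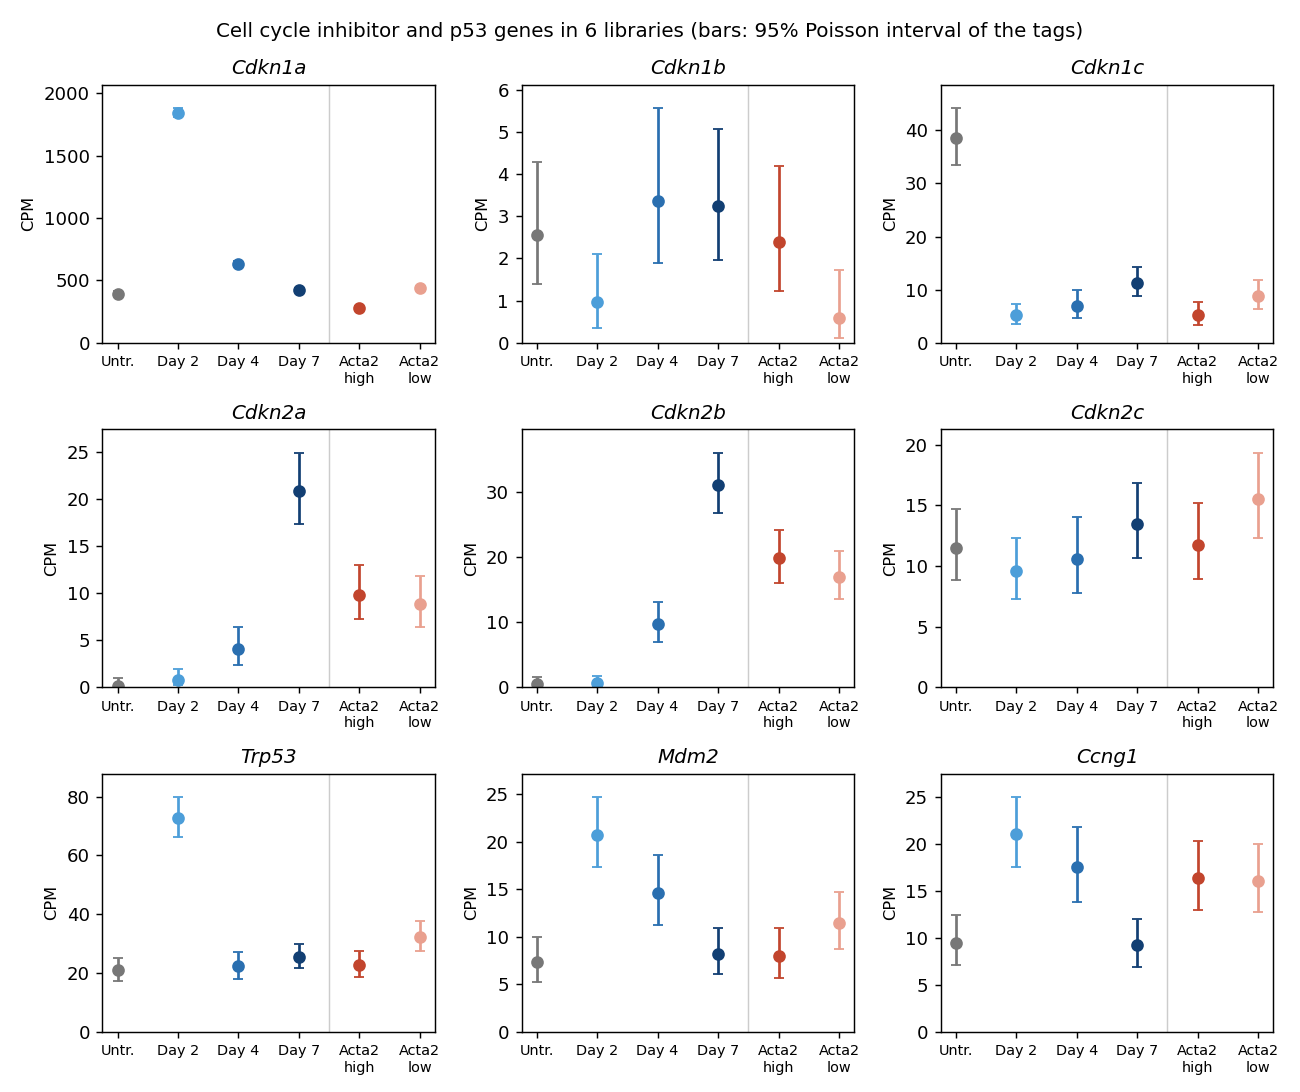
Levels of 9 genes in CPM (vertical axes, each starting at 0) in the 6 libraries; points are single libraries and bars are 95% Poisson intervals of the tags. Cdkn1a and Trp53 are highest at Day 2 (1846 and 72.7 CPM), Cdkn2a and Cdkn2b at Day 7 (20.8 and 31.1 CPM), and Cdkn1c in Untreated (38.6 CPM).

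The Day 2 excess of Cdkn1a was largely gone by Day 4. After median scaling, Cdkn1a was 2.30-fold lower at Day 4 than at Day 2 (2.20 to 2.39) and a further 1.57-fold lower at Day 7 than at Day 4 (1.48 to 1.65). At Day 7 its CPM was 1.07 times that of Untreated (1.01 to 1.13), but 0.820 times after median scaling (0.773 to 0.869), so the direction of this last difference turns with the scaling. Among all genes by level, Cdkn1a ranked 182 in Untreated, 73 at Day 2, 178 at Day 4 and 239 at Day 7. An uncharacterised annotated locus on the other strand, AC167363.2, overlaps Cdkn1a.

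A gene was counted as measured in a comparison when its mean over both libraries reached 10 CPM, and as higher or lower when log2(CPM + 1) differed by at least 2, which is 4-fold. At Day 2 against Untreated, 6 of the 9 genes were measured. By this rule 1 was higher (Cdkn1a), where 13.6% of all 4256 measured genes were, 1 was lower (Cdkn1c), where 4.70% of all were, and 4 were within 4-fold. Cdkn1c passed the filter only through its Untreated level, so nothing is read from its call. The median difference of the 6 genes was 1.23 log2, against 0.66 for all measured genes. Mdm2 and Ccng1 passed the filter only through Day 2, so nothing is read from this median or from the 2-fold count below. The call for Cdkn1a ended after median scaling, under which 7.03% of all were at least 4-fold higher and 7.42% lower, and a 2-fold rule took in 5 of the 6 genes and 49.2% of all. The unscaled difference of Cdkn1a lay at the 89.0th percentile of all measured genes.

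Cdkn1c, which encodes p57 and is an imprinted gene, ran the other way and was highest before transfer. Its level was 38.6 CPM in Untreated, 5.18 CPM at Day 2, 6.97 CPM at Day 4, 11.3 CPM at Day 7, 5.19 CPM in Acta2 high and 8.84 CPM in Acta2 low. Untreated lay above all 5 transferred libraries beyond counting error, and no neighbouring pair among those 5 differed beyond it. Day 7 and Day 2, not neighbours in that order, did differ, with Day 7 2.18-fold higher in CPM (1.41 to 3.43). After median scaling Cdkn1c was 11.7-fold lower at Day 2 than in Untreated (8.06 to 17.6), 6.86-fold lower at Day 4 (4.69 to 10.3) and 4.47-fold lower at Day 7 (3.37 to 5.98). At Day 4 it was the single one of 6 measured past 4-fold against Untreated. Of all 3933 measured genes, 5.11% were that much lower and 9.99% that much higher. This call for Cdkn1c ended with a pseudocount of 5 CPM. Cdkn1c was under 10 CPM at Day 2 and Day 4 and passed the filter there only through Untreated, so nothing is read from either call. The 6 mesothelial markers summed to 48.8 CPM in Untreated and 3.08 to 16.3 CPM in the transferred libraries. Upk1b alone gave 38.6 CPM of the Untreated sum, while Krt19 and Wt1 were higher in Acta2 low (5.50 and 2.16 CPM) than in Untreated (2.92 and 1.097 CPM), and Upk3b was at 0 in Day 2, Day 4 and both Acta2 libraries. Their part in the Cdkn1c values was not tested. An annotated antisense gene, Gm44732, overlaps Cdkn1c, and whether the counting used strand is not given in the sources used here.

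Cdkn1b, which encodes p27, the inhibitor linked to resting cells, was barely sampled, with 3 to 19 tags per library. It had 14 tags in Untreated, 6 at Day 2, 15 at Day 4, 19 at Day 7, 12 in Acta2 high and 3 in Acta2 low. None of its neighbours in the order of levels differed beyond counting error. At Day 7 it was 4.08-fold higher than at Day 2 after median scaling (1.57 to 12.5), from 19 against 6 tags.

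The p53 gene and its targets Mdm2 and Ccng1 were, like Cdkn1a, highest in CPM at Day 2. Trp53 stood at 21.0 CPM in Untreated, 72.7 CPM at Day 2, 22.3 CPM at Day 4, 25.5 CPM at Day 7, 22.8 CPM in Acta2 high and 32.2 CPM in Acta2 low. The Day 2 level was apart from all others, Acta2 low lay 1.27-fold above Day 7 in CPM (1.01 to 1.59), and below it the neighbours Day 7, Acta2 high, Day 4 and Untreated could not be told apart. After median scaling, Trp53 was 2.19-fold higher at Day 2 than in Untreated (1.78 to 2.72) and 0.854 times the Untreated level at Day 4 (0.646 to 1.13). In the GENCODE transcripts the tag at the last CATG of Trp53, the site assumed here to anchor tags, is shared with the pseudogene Trp53-ps, so its tags are uncertain in origin.

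Mdm2, whose product is the ubiquitin ligase of p53, had 7.31 CPM in Untreated, 20.7 CPM at Day 2, 14.6 CPM at Day 4, 8.20 CPM at Day 7, 7.99 CPM in Acta2 high and 11.4 CPM in Acta2 low. Ccng1, which encodes cyclin G1, had 9.51 CPM in Untreated, 21.1 CPM at Day 2, 17.5 CPM at Day 4, 9.23 CPM at Day 7, 16.4 CPM in Acta2 high and 16.1 CPM in Acta2 low. Both stood highest in CPM at Day 2, though for Ccng1 Day 2 and Day 4 could not be told apart (1.20-fold, 0.900 to 1.61). At Day 7 both had intervals that included the Untreated level. After median scaling, Mdm2 was 1.80-fold (1.25 to 2.63) and Ccng1 1.40-fold (1.01 to 1.98) higher at Day 2 than in Untreated, and 1.61-fold (1.07 to 2.45) and 1.49-fold (1.03 to 2.16) higher at Day 4. All of these stayed within 4-fold.

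Between Day 4 and Day 2 none of the 5 measured genes was past 4-fold, where 0.564% of all 4259 measured genes were. By a 2-fold rule 2 were lower at Day 4, Cdkn1a and Trp53, where 12.0% of all passed in either direction. After median scaling, Trp53 was 2.57-fold lower at Day 4 than at Day 2 (2.06 to 3.22), while Mdm2 stood at 0.898 (0.655 to 1.22) and Ccng1 at 1.06 (0.790 to 1.41) of its Day 2 level. At Day 7 against Day 4 the split ran the other way. Mdm2 was 1.87-fold lower at Day 7 (1.27 to 2.77) and Ccng1 1.99-fold lower (1.39 to 2.87), and Trp53 was at 1.09 (0.840 to 1.42). Within each library, where no scaling enters, there were 0.348 Mdm2 tags per Trp53 tag in Untreated (0.236 to 0.502), 0.285 at Day 2 (0.232 to 0.348), 0.657 at Day 4 (0.473 to 0.907) and 0.322 at Day 7 (0.228 to 0.449).

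**Figure D2:**
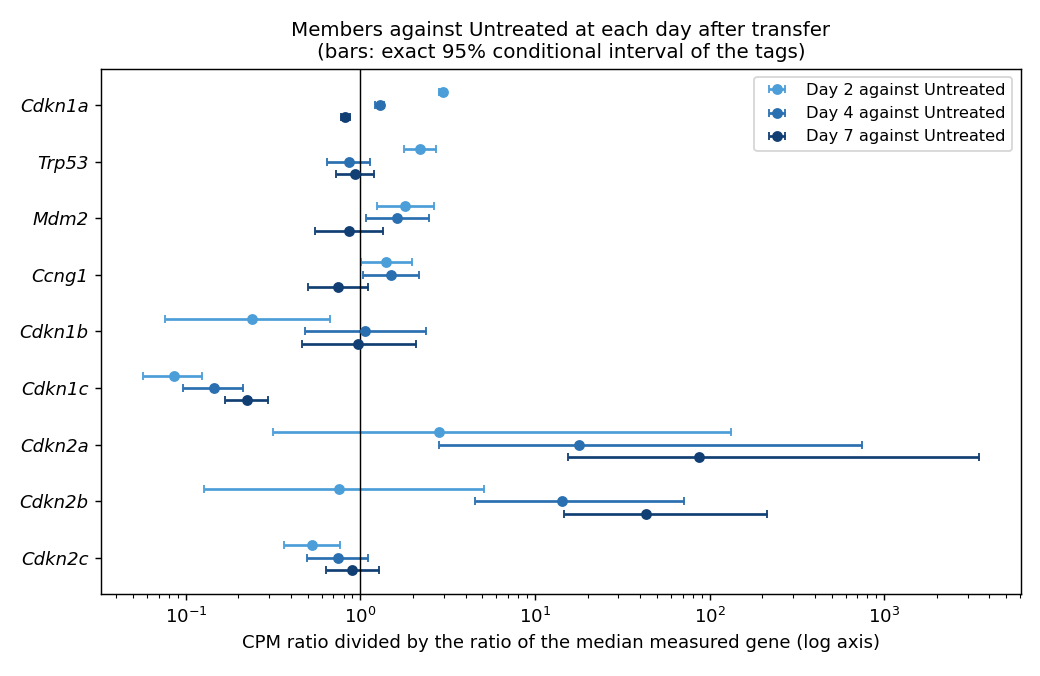
CPM ratio against Untreated divided by the ratio of the median measured gene (horizontal log axis) for 9 genes at Day 2, Day 4 and Day 7; each point compares 1 library with the Untreated library and bars are exact 95% conditional intervals of the tags. Cdkn1a goes 2.96, 1.29 and 0.820 over the 3 days while Cdkn2b goes 0.749, 14.2 and 43.4.

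The promoters of Cdkn1a, Trp53, Mdm2 and Ccng1 are shown because all 4 transcripts stood highest in CPM at Day 2. After median scaling, Day 2 and Day 4 could not be told apart for Mdm2 and Ccng1. In the RefSeq promoter table (build GRCm38.p6, 250 bases before to 50 after each start), 9 of the 10 genes matched, and the decamer half-site of the p53 consensus, which reads the same on both strands, occurred in those of Cdkn1a, Mdm2, Ccng1 and Trp53, and of Cdkn2d, for which no level is given here. It occurred in 8.36% of all 32851 promoters. Counted by gene, it occurred in 9.55% of all 27025 genes with a promoter entry and in 7 of the 22 such genes of a list of p53 targets. It was not found in the windows of Cdkn1b, Cdkn2a, Cdkn2b and Cdkn2c. A match is a run of letters and not a binding site. The Cdkn1a window, at the upstream of its 2 listed starts, held 2 half-sites with 12 bases between them. Their first bases lay at -73 and -51 relative to that start. Of all promoters, 0.359% held 2 or more. The window at the other Cdkn1a start held no half-site, and the Cdkn1a level given here is not divided by start. The half-sites are in capitals below, with 10 bases on each side for the 3 other genes.
Cdkn1a, chr17:29090729-29091028, plus strand: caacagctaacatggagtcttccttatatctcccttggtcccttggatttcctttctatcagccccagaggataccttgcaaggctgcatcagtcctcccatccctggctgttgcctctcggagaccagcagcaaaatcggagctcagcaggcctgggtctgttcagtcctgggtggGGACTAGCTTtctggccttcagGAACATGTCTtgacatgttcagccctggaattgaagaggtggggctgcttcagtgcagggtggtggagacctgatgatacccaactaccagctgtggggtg
Mdm2, chromosome 10, minus strand, first base at -186: agtcggatagGAACTTGCCTagcgaccatt
Ccng1, chromosome 11, minus strand, first base at -185: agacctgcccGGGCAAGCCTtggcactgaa
Trp53, chromosome 11, plus strand, first base at -75: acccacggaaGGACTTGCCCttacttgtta

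Cdkn2a and Cdkn2b, neighbours on chromosome 4 (89274471 to 89294653 and 89306299 to 89311039 in GRCm38), were close to absent before transfer and at Day 2 and were highest at Day 7. Cdkn2a, whose locus encodes p16Ink4a and, in another reading frame, p19Arf, an inhibitor of Mdm2, had 1 tag in Untreated, 5 at Day 2, 18 at Day 4, 122 at Day 7, 49 in Acta2 high and 45 in Acta2 low. In CPM that is 0.183 in Untreated, 0.810 at Day 2, 4.05 at Day 4, 20.8 at Day 7, 9.78 in Acta2 high and 8.84 in Acta2 low. Day 7, both Acta2 libraries, Day 4 and Day 2 followed each other in this order, each step beyond counting error except that between Acta2 high and Acta2 low; Day 2 and Untreated could not be told apart (4.43-fold, 0.496 to 210).

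Cdkn2b, which encodes p15 and is a classical target of TGF-beta signalling, had 3 tags in Untreated, 4 at Day 2, 43 at Day 4, 182 at Day 7, 99 in Acta2 high and 86 in Acta2 low. Its CPM was 0.548 in Untreated, 0.648 at Day 2, 9.67 at Day 4, 31.1 at Day 7, 19.8 in Acta2 high and 16.9 in Acta2 low. The libraries stood in the same order as for Cdkn2a, with the same 2 steps inside counting error. Cdkn2b was 14.9-fold higher in CPM at Day 4 than at Day 2 (5.42 to 57.2), and Cdkn2a 5.00-fold (1.79 to 17.2).

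At Day 7 against Untreated, Cdkn2a was 87.3-fold higher after median scaling (15.4 to 3476) and Cdkn2b 43.4-fold higher (14.6 to 212). These 2 of the 6 measured genes were past 4-fold, where 4.95% of all 4017 measured genes were that much higher and 3.31% that much lower. Both passed the filter only through their Day 7 level, so they had to differ there, and their count is a description. With 1 and 3 tags in Untreated the size of either fold rests on the pseudocount: with 5 CPM added the folds were 3.82 and 4.98. At Day 4 both were under the filter, with folds over Untreated of 17.9 (2.82 to 744) for Cdkn2a and 14.2 (4.55 to 71.7) for Cdkn2b.

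At Day 7 against Day 4, where neither gene was near 0 tags, Cdkn2a was 4.91-fold higher after median scaling (2.98 to 8.57) and Cdkn2b 3.07-fold higher (2.19 to 4.38). Cdkn2a was the 1 gene of 7 measured past 4-fold, where 2.23% of all 4132 measured genes were that much higher; by a 2-fold rule Cdkn2b joined it, where 19.4% of all passed. Both genes were under 10 CPM at Day 4 and passed the filter only through Day 7, so nothing is read from this count. The 4-fold call for Cdkn2a ended with a pseudocount of 5 CPM. Markers of several cell types differed between the same libraries. The 8 fibroblast markers summed to 10309 CPM in Untreated, 3779 CPM at Day 2, 5956 CPM at Day 4 and 19458 CPM at Day 7, so Untreated, where both INK4 genes were near absent, held more of them than Day 2 or Day 4. Pdgfra, one of the 8, was past 4-fold lower at Day 7 against Untreated. Of the leukocyte list Cd74 had 71 tags in Untreated, 25 at Day 2, 12 at Day 4 and 131 at Day 7. Scgb1a1 of the epithelial list had 57 tags in Untreated, 22 at Day 2, 3 at Day 4 and 129 at Day 7. The 6 pericyte and smooth muscle markers summed to 12.8 CPM in Untreated, 40.5 CPM at Day 2, 67.9 CPM at Day 4 and 84.1 CPM at Day 7. The part of these cell types was not tested.

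Per Cdkn2b tag there were 0.419 Cdkn2a tags at Day 4 (0.227 to 0.741), 0.670 at Day 7 (0.529 to 0.848), 0.495 in Acta2 high (0.344 to 0.704) and 0.523 in Acta2 low (0.356 to 0.759). These intervals overlapped, so no change in the balance of both genes was detectable at this depth.

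The counts cannot be divided between p16Ink4a and p19Arf. The table has a single Cdkn2a row, and both coding transcripts of the gene in GENCODE (Cdkn2a-201, the p16Ink4a form, and Cdkn2a-202, the p19Arf form) end with the same last CATG, the site of the anchoring enzyme of most SAGE protocols, whose use here is an assumption. The 18 bases from that site are shown with the site in capitals, since they are what such a tag would read; in GENCODE each was found at this place in no other gene.
Cdkn2a-201: CATGagaaactgagcgaa
Cdkn2a-202: CATGagaaactgagcgaa
Cdkn2b-201: CATGtgtggggattcacc
Cdkn2c-201: CATGtaatagctattcct

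The promoters of the p16Ink4a transcript and of Cdkn2b are given because both genes appeared late. The only motif searched besides the p53 half-site was the GC box GGGCGG on either strand, which 35.7% of all promoters hold. It is in capitals and was found once in each window shown, 23 bases past the p16Ink4a start and 4 bases past the Cdkn2b start. The Cdkn2a window near the start of the p19Arf form, not shown, held 3 GC boxes. The Cdkn2a tags do not tell from which start the late transcripts came.
Cdkn2a (p16Ink4a start), chr4:89282143-89282442, minus strand: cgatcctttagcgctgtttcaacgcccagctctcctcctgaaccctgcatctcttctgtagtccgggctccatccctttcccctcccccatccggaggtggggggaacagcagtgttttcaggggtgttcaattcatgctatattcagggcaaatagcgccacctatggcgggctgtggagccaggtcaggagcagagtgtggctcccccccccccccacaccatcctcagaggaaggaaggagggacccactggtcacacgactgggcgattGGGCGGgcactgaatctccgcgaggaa
Cdkn2b, chr4:89310983-89311282, minus strand: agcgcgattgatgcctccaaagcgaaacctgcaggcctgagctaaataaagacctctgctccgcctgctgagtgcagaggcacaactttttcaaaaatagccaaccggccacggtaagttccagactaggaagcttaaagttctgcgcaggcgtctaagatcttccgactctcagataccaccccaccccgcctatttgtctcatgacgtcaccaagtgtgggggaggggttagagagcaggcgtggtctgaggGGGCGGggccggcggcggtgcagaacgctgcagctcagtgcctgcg

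Cdkn2c, which encodes p18, was nearly level and did not share the course of its relatives. It had 11.5 CPM in Untreated, 9.55 CPM at Day 2, 10.6 CPM at Day 4, 13.5 CPM at Day 7, 11.8 CPM in Acta2 high and 15.5 CPM in Acta2 low, and no neighbours in the order of levels differed beyond counting error. The highest was 1.62 times the lowest. After median scaling Cdkn2c was 1.90-fold lower at Day 2 than in Untreated (1.31 to 2.76) and 1.73-fold higher at Day 7 than at Day 2 (1.22 to 2.46).

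The contrast between the early Cdkn1a peak and the late INK4 genes was largest between Day 7 and Day 2. Among 7 measured there, Cdkn2a and Cdkn2b (2 genes) passed 4-fold upward at Day 7, against 3.29% of all 4438 measured genes, and Cdkn1a (1 gene) downward, against 4.57% of all. Cdkn2a and Cdkn2b, chosen for their late rise, passed the filter only through Day 7 and had to be called, so nothing is read from their count. The Cdkn1a call ended after median scaling, with median-ratio size factors and without the 100 most abundant genes. A 2-fold rule took in 6 of the 7, where 32.1% of all passed. Mdm2 and Ccng1 passed the filter only through Day 2, so nothing is read from the 2-fold count either. After median scaling Cdkn2b was 58.6-fold higher (22.5 to 218) and Cdkn2a 31.4-fold higher (13.1 to 98.6). Cdkn1a was 3.57-fold lower (3.42 to 3.73). Trp53 was 2.34-fold lower (1.94 to 2.83). Mdm2 was 2.07-fold lower (1.47 to 2.95), and Ccng1 was 1.87-fold lower (1.35 to 2.62).

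**Figure D3:**
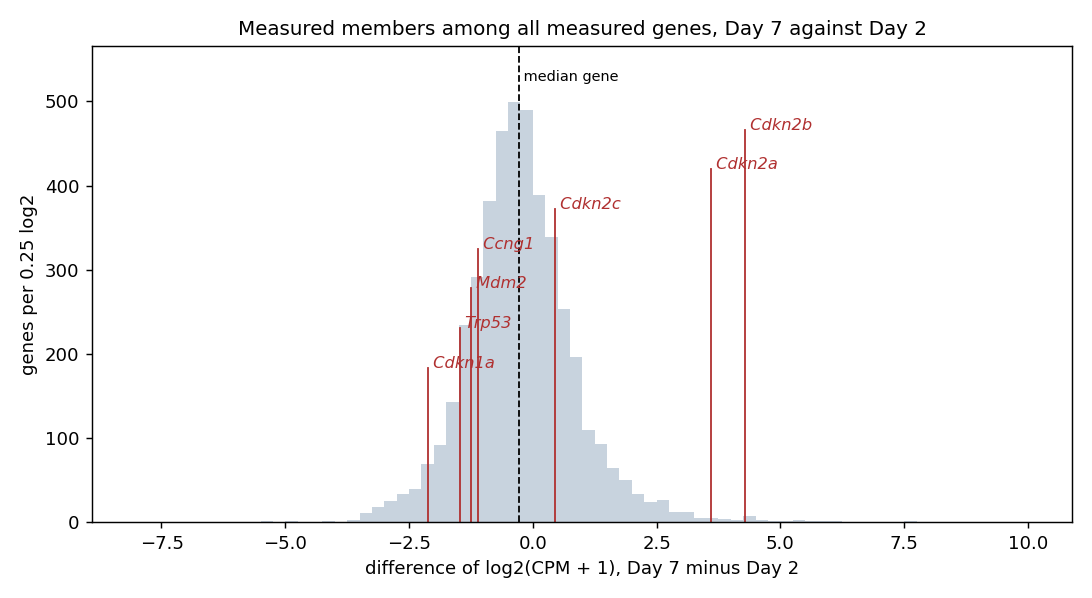
Distribution of the difference in log2(CPM + 1), Day 7 minus Day 2, over 4438 measured genes (bars count genes per 0.25 log2), with the 7 measured genes of the group as red lines whose heights carry no value and the median gene as a dashed line. Cdkn2a and Cdkn2b lie at 3.59 and 4.28, and Cdkn1a at -2.12.

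Ratios within a library give the same contrast free of scaling. There were 721 Cdkn1a tags per Cdkn2b tag in Untreated (246 to 3497), 2850 at Day 2 (1113 to 10462), 65.3 at Day 4 (48.4 to 90.5) and 13.6 at Day 7 (11.7 to 15.9). Per Cdkn2a tag there were 2162 Cdkn1a tags in Untreated (388 to 85433), 2280 at Day 2 (977 to 7023), 156 at Day 4 (98.6 to 264) and 20.3 at Day 7 (16.9 to 24.5). Neither ratio could be told apart between Day 2 and Untreated by these intervals, and each interval was separate between Day 2, Day 4 and Day 7. Summed over the 6 inhibitors with a row, INK4 genes supplied 2.73% of inhibitor tags in Untreated (2.12 to 3.45), 0.591% at Day 2 (0.459 to 0.749), 3.64% at Day 4 (2.998 to 4.38), 13.0% at Day 7 (11.8 to 14.3), 12.6% in Acta2 high (11.04 to 14.3) and 8.42% in Acta2 low (7.36 to 9.58). Cdkn2c gave 63 of the 67 INK4 tags in Untreated and 59 of the 68 at Day 2, so the INK4 share in these libraries is mostly that of Cdkn2c. Cdkn1a alone held at least 84.1% of inhibitor tags in every library.

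**Figure D4:**
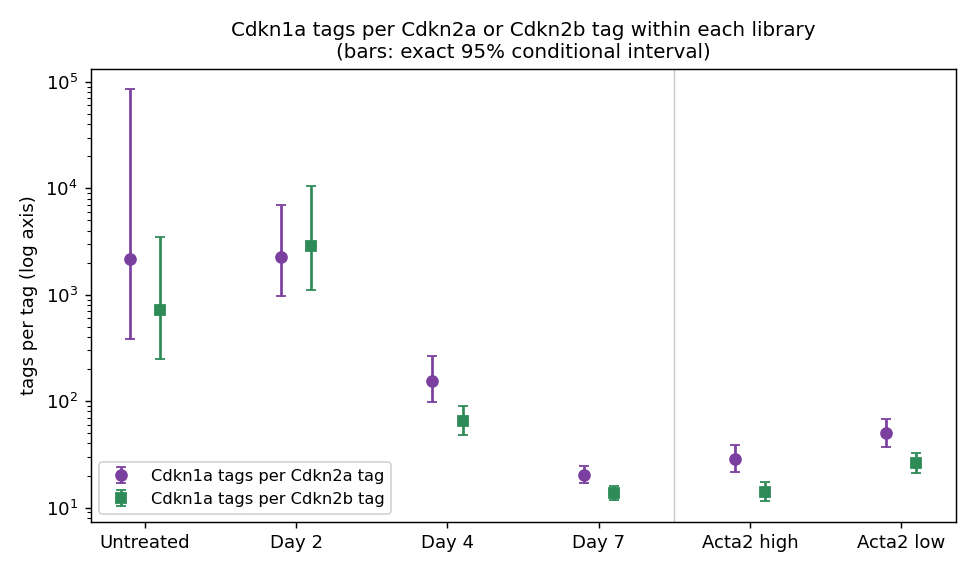
Tags of Cdkn1a per tag of Cdkn2a (circles) or Cdkn2b (squares) within each of the 6 libraries, on a log axis; bars are exact 95% conditional intervals. The ratio to Cdkn2b is 13.6 at Day 7 and 2850 at Day 2, and that to Cdkn2a is 20.3 at Day 7 and 2280 at Day 2.

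Between the Acta2 sorts 6 of the 9 genes had intervals that included the median gene. Of 5 measured, none was past 4-fold, where 0.15% of all 3998 measured genes were. Cdkn1a was 1.43-fold lower in Acta2 high than in Acta2 low after median scaling (1.33 to 1.53) and Trp53 1.28-fold lower (1.00 to 1.64). Cdkn2a was at 1.22 (0.798 to 1.87) and Cdkn2b at 1.29 (0.958 to 1.75) in Acta2 high relative to Acta2 low, intervals that include 1 and also a 1.5-fold difference. Cdkn1b, with 12 tags in Acta2 high and 3 in Acta2 low and so under the filter, was 4.49-fold higher in Acta2 high after median scaling (1.21 to 24.8). The 8 genes of the epithelial list summed to 10.98 CPM in Acta2 high and 274 CPM in Acta2 low, of which Krt8 alone gave 6.99 CPM in Acta2 high and 265 CPM in Acta2 low. Scgb1a1 ran the other way, at 1.80 CPM in Acta2 high and 0.786 CPM in Acta2 low. Epcam, Cdh1, Sftpa1, Sftpb and Ager were at 0 in Acta2 high and Cdh1, Sftpb and Ager in Acta2 low. Mesothelial markers summed to 3.79 CPM in Acta2 high and 16.3 CPM in Acta2 low, with 0 Krt19 tags in Acta2 high and 28 in Acta2 low. Pericyte and smooth muscle markers summed to 127 CPM in Acta2 high and 207 CPM in Acta2 low. The part of these genes' source cells was not tested.

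Other targets of p53 were sparse, and those well sampled did not move as a block. The table had 28 such targets, of which 10 passed the filter for Day 2 against Untreated: 3 were at least 4-fold higher (Plk2, Gdf15 and Aen), where 13.6% of all measured genes were, none lower and 7 within 4-fold. Gdf15 passed the filter only through Day 2. The calls for Gdf15 and Aen ended after median scaling, at 3.40-fold (2.52 to 4.67) and 2.80-fold (2.18 to 3.64). The median difference of the 10 targets was 0.86 log2, against 0.66 for all measured genes. Gdf15, a stress cytokine, had 9.32 CPM in Untreated, 50.04 CPM at Day 2, 33.0 CPM at Day 4 and 9.40 CPM at Day 7. Mdm2 had the same order in these libraries, though for both genes Day 7 and Untreated could not be told apart. Aen, an exonuclease of apoptosis, had 13.7 CPM in Untreated, 60.6 CPM at Day 2, 36.2 CPM at Day 4 and 23.2 CPM at Day 7. Plk2, a polo-like kinase, was still 3.78-fold higher at Day 7 than in Untreated after median scaling (3.48 to 4.11), at 621 CPM at Day 7 against 126 CPM in Untreated. Bax, which opens mitochondria in apoptosis, was 2.28-fold higher at Day 2 (2.07 to 2.52) and 1.61-fold higher at Day 7 (1.45 to 1.79). Other targets took other courses, of which 2 are given, chosen after their values were seen. Btg2, an antiproliferative factor, had 624 CPM in Untreated, 161 CPM at Day 2, 218 CPM at Day 4 and 586 CPM at Day 7, so it was lowest where Cdkn1a was highest. Bbc3, which encodes the apoptosis protein PUMA, had 15.5 CPM in Untreated, 13.8 CPM at Day 2, 22.7 CPM at Day 4 and 38.4 CPM at Day 7. The list of p53 regulators and damage kinases had 18 rows, 3 of them above the filter at Day 2 and none past 4-fold. Mdm4, the partner of Mdm2, had 2 to 9 tags per library.

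In a list of cyclins, cyclin-dependent kinases and Cdc25 genes, 4 were past 4-fold at Day 2, where Cdkn1a was highest. Of 17 in the table, 8 were measured at Day 2 against Untreated, and 4 were at least 4-fold higher (Cdk1, Cdk4, Ccnd1 and Ccnb1), where 13.6% of all were, and none lower, with a median of 2.19 log2 against 0.66 for all measured genes. Cdk1, Ccnb1 and Cdk7 passed the filter only through Day 2, so nothing is read from this median or from the calls of Cdk1 and Ccnb1. The Cdk4 call ended after median scaling, at 3.64-fold (3.23 to 4.13). Ccnd1, the D-type cyclin that INK4 proteins displace, had 10.6 CPM in Untreated, 174 CPM at Day 2, 116 CPM at Day 4 and 44.6 CPM at Day 7. Its kinase partner Cdk4 had 55.2 CPM in Untreated, 317 CPM at Day 2, 200 CPM at Day 4 and 228 CPM at Day 7, and was still 3.17-fold higher at Day 7 than in Untreated after median scaling (2.79 to 3.60). Cdk6 was at 0.599 to 2.43 CPM throughout. Between Day 7 and Day 4, Cdk1 and Ccnb1 were the 2 of 8 measured genes past 4-fold lower, where 2.23% of all were. Ccnb1 passed the filter there only through Day 4. Cdk1 stood at 14.2 CPM at Day 7 and 65.4 CPM at Day 4. In the same step Cdkn2a and Cdkn2b were higher.

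Most listed genes that act downstream or on the stability of the inhibitors were under the filter at Day 2 against Untreated. Of 19 genes of the Rb, E2F and DREAM list, 3 were measured at Day 2 and none was past 4-fold; Rb1 had 1 to 8 tags per library. In the list on p27 and p57 turnover 7 genes were measured, and Cks1b and Cks2 (2 genes), small kinase-binding proteins, passed 4-fold upward at Day 2 against Untreated, where 13.6% of all did. Both passed the filter only through Day 2. Cks1b had 0.914 CPM in Untreated, 41.5 CPM at Day 2, 39.3 CPM at Day 4 and 5.81 CPM at Day 7, and Cks2 had 2.01 CPM in Untreated, 31.3 CPM at Day 2, 39.6 CPM at Day 4 and 11.1 CPM at Day 7. Skp2, the F-box protein that targets p27, had 4 to 9 tags.

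Near the INK4 locus, Mtap, the gene of a methionine salvage enzyme beside Cdkn2a, did not share the late course of its neighbours. It had 6.03 CPM in Untreated, 41.1 CPM at Day 2, 25.4 CPM at Day 4 and 15.5 CPM at Day 7, so that it was 4.32-fold higher at Day 2 after median scaling (3.002 to 6.42) and 2.17-fold lower at Day 7 than at Day 2. It was the 1 of 6 measured genes of the list on control of that locus past 4-fold at Day 2, a share near the 13.6% of all measured genes, and it passed the filter only through Day 2. The Polycomb gene Cbx7, a repressor of Cdkn2a, had 60 tags in Untreated, 2 at Day 2, 1 at Day 4, 9 at Day 7 and 0 in both Acta2 libraries. Ezh2, the Polycomb methyltransferase, had 0.914 CPM in Untreated, 8.26 CPM at Day 2, 3.82 CPM at Day 4 and 6.32 CPM at Day 7. Neither reached the filter in these comparisons, and both were chosen after their values were seen.

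Genes often listed as markers of senescent cells were mostly within 4-fold at Day 7 against Untreated, where Cdkn2a and Cdkn2b were higher. Of 10 measured in that pair, Hmga1 was past 4-fold upward (1 gene), where 4.95% of all were, Mmp3 downward (1 gene), where 3.31% of all were, and 8 were within 4-fold. The Hmga1 call lay at the threshold and ended after median scaling, at 3.38-fold (2.39 to 4.88). In this pair Hmga1 passed the filter only through Day 7. The median difference of the 10 was 0.81 log2, against 0.39 for all measured genes. Hmga1, a chromatin protein, had 7.31 CPM in Untreated, 294 CPM at Day 2, 127 CPM at Day 4 and 32.3 CPM at Day 7. Its relative Hmga2 had no tag in Untreated, 26.7 CPM at Day 2, 25.9 CPM at Day 4 and 4.61 CPM at Day 7. Plaur, the urokinase receptor, had 3.47 CPM in Untreated, 51.0 CPM at Day 2, 25.4 CPM at Day 4 and 13.5 CPM at Day 7. At Day 2 against Untreated, Hmga1, Hmga2 and Plaur were past 4-fold upward and passed the filter only through Day 2. Mmp3, a matrix protease, had 614 CPM in Untreated, 420 CPM at Day 2, 161 CPM at Day 4 and 40.1 CPM at Day 7.

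By the root mean square difference of centred log2(CPM + 1) over the 6 libraries, the genes with profiles most like Cdkn1a among 2722 with a mean of at least 20 CPM were Nop14 (0.28), Wdr46 (0.29) and Txnrd1 (0.30). Those most like Cdkn2a among 2723 were Pth1r (0.36), Ppic (0.38) and Mmp14 (0.38), and those most like Cdkn2b were Col1a1 (0.43), Fn1 (0.45) and Sfrp1 (0.55). Cdkn2a and Cdkn2b differed from each other by 0.41. Pth1r had 6.95 CPM in Untreated, 16.8 CPM at Day 2, 34.2 CPM at Day 4 and 118.7 CPM at Day 7, and Nop14 had 23.4, 66.4, 36.0 and 21.0 CPM in the same libraries.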

How the data were processed

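The authors deposited 1 table of CPM values for 24408 gene symbols in 6 libraries. Per the labels' protocols these are 3' SAGE libraries from PCR-amplified cDNA; BWA 0.6.2 and mm9 are named in the submitters' processing notes, and the rule that assigned tags to genes is not given in the sources used here. Each column sums to 1000000, and 100% of values were whole multiples of 1 tag within 0.001, which gave tag counts. Groups came from the sample titles, 1 library each. Over genes with a mean of at least 10 CPM in the pair, log2(CPM + 1) was compared, and a difference of 2 was called. Median scaling divides a CPM ratio by that of the median measured gene. Ratios carry exact conditional (Clopper-Pearson) 95% intervals, levels Poisson intervals; no molecular identifiers are named, so PCR copies may be counted. The named genes were the members, up to 4 called genes per list by size of difference, 7 further genes always named (Bax, Ccnd1, Cdk4, Cdk6, Rb1, Mdm4 and Skp2), and 3 genes of like profile for each of Cdkn1a, Cdkn2a and Cdkn2b. Outside this rule Cbx7, Ezh2, Btg2, Bbc3 and the marker genes were named after their values were seen. The members and lists were chosen with earlier results of these data known. A result that needs a withheld item is not reported here. An exact binomial test with Benjamini-Hochberg adjustment at 0.05 on the recovered tags compares 2 libraries, not conditions; it passed 3493 of 4256 genes for Day 2 against Untreated. The size rule was tested on simulated data. Promoters (GRCm38.p6) and transcripts (GENCODE M21) belong to a later build than mm9 and were matched by symbol. Python 3.11.15, scipy 1.17.1 and pandas 2.3.3 were used.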

Additional observations from a re-analysis of the deposited data

Results flagged for a closer look

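Cdkn1a moved in opposite directions at different days against the same Untreated library. Relative to the median gene it was 2.96-fold higher at Day 2 (2.83 to 3.10) and 1.29-fold higher at Day 4 (1.22 to 1.37), and stood at 0.820 times the Untreated level at Day 7 (0.773 to 0.869). The difference between days was not tested, since each day is 1 library, and the comparisons share the Untreated library. In CPM with no correction for the median gene Cdkn1a was above Untreated at all 3 days, with a Day 7 ratio of 1.07.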

How the results depend on the processing

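No paired analysis was possible because each group has 1 library. For Day 2 against Untreated, 2 of these genes were past 4-fold and 1 remained past it with median-ratio size factors, without the 100 most abundant genes, or relative to the median gene; a 2-fold rule gave 5 of 6, where 49.2% of all measured genes passed it. For Day 4 against Untreated, 1 was past 4-fold, 0 with a pseudocount of 5 CPM, 3 with no filter and 2 without the 100 most abundant genes. For Day 7 against Untreated, 2 were past it, and 1 with median-ratio size factors, where Cdkn2a fell under the filter; relative to the median gene it was 3, with Cdkn1c added as lower. For Day 4 against Day 2 the count was 0, and 1 with no filter or without the 100 most abundant genes, and 2 by the 2-fold rule (12.0% of all). For Day 7 against Day 4 it was 1, 0 with a pseudocount of 5 CPM and 2 by the 2-fold rule (19.4% of all). For Day 7 against Day 2 it was 3, 6 by the 2-fold rule (32.1% of all), and 2 with median-ratio size factors, without the 100 most abundant genes or relative to the median gene, where the Cdkn1a call ended each time. The Cdkn1a ratio of Day 2 to Untreated was 2.96 relative to the median gene, 4.67 in CPM and 3.31 with median-ratio size factors, and that of Day 7 to Day 2 was 0.280, 0.229 and 0.263. With a pseudocount of 5 CPM the ratio of Day 7 to Untreated was 3.82 for Cdkn2a and 4.98 for Cdkn2b, and that of Day 7 to Day 2 was 5.43 and 7.81; with 1 CPM the Cdkn2a ratio of Day 7 to Untreated was 14.1. A pseudocount pulls the ratio of a gene near 0 toward 1 by construction. Mdm2 and Ccng1 passed the filter only through Day 2, both against Untreated and against Day 7. Nothing is read from the 2-fold counts of those comparisons. The other 63 values tried kept their direction and their size within the counting interval or, for counts, within 1.5 times. Depth limits Cdkn1b, and Cdkn2a and Cdkn2b before Day 4, where a few tags carry the value.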
